A study of Homo sapiens with 6 samples.

Results

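Natural antisense transcripts are long non-coding RNAs made from the strand opposite to another gene, and their symbols carry the name of that gene with the ending -AS1, -AS2 or -AS3. Of the 14884 genes with a symbol on these arrays, 472 had such a symbol, after 3 antisense genes of the HOX clusters were set aside by the same naming rule. They were read from 503 of the 53616 features, and the feature with the highest mean over all arrays stood for a gene that had several. The ending was -AS1 for 431 genes, -AS2 for 31 and -AS3 for 10. In the annotation 466 of these genes were classed as long non-coding RNA and 6 as antisense RNA, and in all 216 pairs for which the strand of both genes was listed, the antisense and the sense gene lay on opposite strands. The sense gene was measured for 313 of the 472 antisense genes, as 302 distinct sense genes. Measured means here that a feature carried the symbol of the gene and no other. A gene not measured in this sense may still have had a feature on the arrays.

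Antisense transcripts can arise in several layouts. Some start close to the promoter of the sense gene and run away from it, some start inside the sense gene and run back across its exons, and some begin beyond its far end. Many are made at low levels and are quickly degraded in the nucleus by the RNA exosome, and for a few loci transcription of the antisense strand is known to change the output of the sense gene.

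The samples were spheroid cultures of SW480, a colorectal cancer line from a primary tumour, and of SW620, a line from a lymph node metastasis, both grown in serum-free medium with growth factors. The question in the series' design was how the tumour-initiating cells that such cultures are used to enrich differ between the lines. There were 3 arrays of each line, which the design text calls technical replicates, so the tests below measure the spread between arrays and not that between separate cultures, and each line stands for 1 tumour. Values are log2 expression values after RMA (robust multi-array average), which equalises the distribution between arrays, and a difference is SW620 minus SW480 on that scale with its standard error (SE, n = 3 arrays per line). A gene is called changed where the adjusted p of limma's moderated test was below 0.05.

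Arrays of a line correlated at 0.988 to 0.992 over all features, and arrays of different lines at 0.963 to 0.965. Of the colon epithelium markers 9 of 11 were measured, at mean levels from 3.82 (CDX1) to 11.6 (KRT18), and 4 were higher and 1 lower in SW620. The largest of these differences were 2.42 ± 0.11 for CEACAM5, a cell surface glycoprotein, -1.54 ± 0.09 for CDX2, an intestinal transcription factor, and 0.62 ± 0.09 for VIL1, an actin-binding protein of the brush border. The measured markers of leukocytes (2 of 7), fibroblasts (1 of 6) and endothelium (3 of 5) had mean levels from 3.18 to 4.57, and 0 of these 6 were called by limma, with 1 (DCN, 0.18 ± 0.08) at an unadjusted p below 0.05. The median of all features was 4.07.

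Of the 472 antisense transcripts, 93 (19.7%) were changed, 43 higher and 50 lower in SW620, while 5293 of all 14884 genes were (35.6%, with 16.0% higher and 19.5% lower). A difference of at least 2-fold was seen for 10 antisense transcripts (2.12%), against 904 of all genes (6.07%). The median difference was 0.02 over the antisense transcripts and 0.01 over all genes, and the median absolute difference was 0.12 and 0.17. The values of the lines did not overlap for 141 antisense transcripts (29.9%), against 45.7% of all genes. These 141 were 90 of the 93 changed ones, the exceptions being OPA1-AS1, GAS6-AS1 and AFF1-AS1, and 51 that were not called. The 379 that were not called had differences from -0.32 to 0.33. Among the changed, 83 were under 2-fold, from -0.87 (TENM3-AS1) to 0.81 (DHRS4-AS1), and the smallest called difference was 0.23. Shifting each array to a common 75th percentile turned the balance of the calls from 43 higher of 93 to 53 higher of 100. Of all genes 36.1% were called after that shift.

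**Figure D1:**
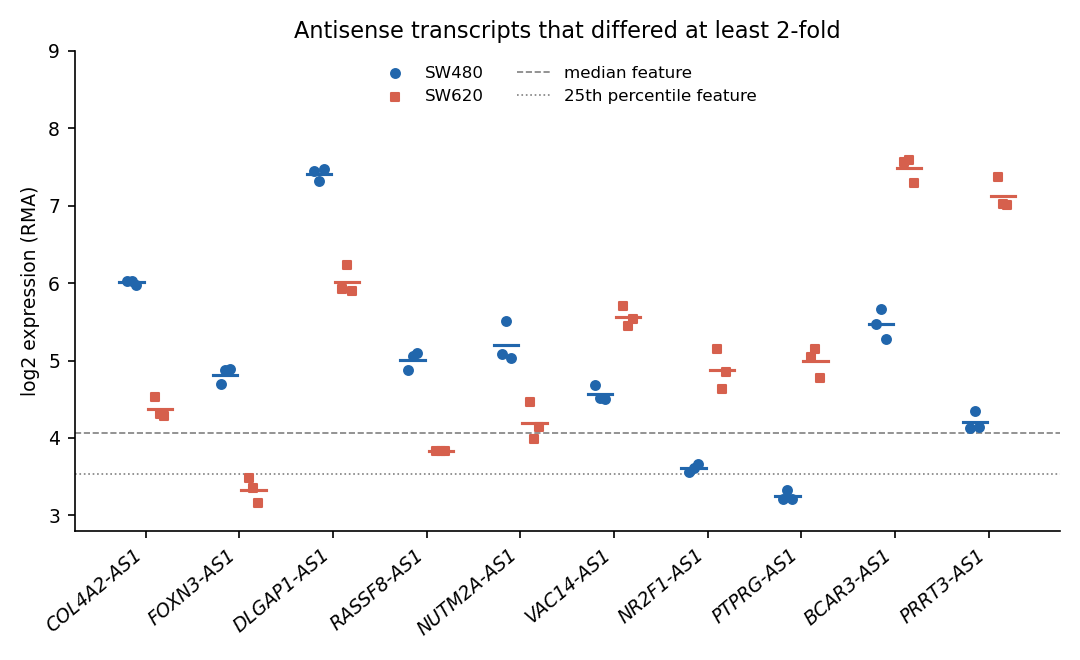
Log2 expression (vertical axis) of the 10 antisense transcripts that differed at least 2-fold between the lines, with a point per array (circles, SW480; squares, SW620) and a bar at the mean of 3 arrays. Dashed and dotted lines mark the median (4.07) and the 25th percentile (3.53) of all features; for each of the 10 the arrays of the lines are apart.

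The largest difference belonged to PRRT3-AS1, the antisense transcript of PRRT3, a gene for a proline-rich transmembrane protein. PRRT3-AS1 was at 4.13, 4.34 and 4.15 in SW480 and at 7.36, 7.02 and 7.01 in SW620. The SW480 values lay close to the median feature and the SW620 values far above it, a difference of 2.92 ± 0.11, or 7.58-fold (adjusted p = 3.449e-10). PRRT3 itself was at 4.04, 3.96 and 3.78 in SW480 and at 3.96, 3.90 and 3.93 in SW620. All of these PRRT3 values lay below the median feature (4.07), with no detection call at hand, so a difference in PRRT3 could have been missed. The values of the lines overlapped, with a difference of 0.0057 ± 0.089 (adjusted p = 0.972) whose sign turned under other scalings. The promoter windows of both genes, chosen after the values were seen, are shown because PRRT3-AS1 had the largest difference of all 472 antisense transcripts. Each window holds 250 bases before the annotated start and 50 from it, 5′ to 3′ on the strand of the gene, from RefSeq on GRCh38.p14, and capitals mark GGGCGG (a GC box core), CCAAT and TATAAA on either strand. The start of PRRT3-AS1 lay 5004 bases from that of PRRT3, with the transcripts running toward each other. The window of PRRT3-AS1 is chr3:9947154-9947453 (plus strand) and that of PRRT3 is chr3:9952359-9952658 (minus strand).
PRRT3-AS1: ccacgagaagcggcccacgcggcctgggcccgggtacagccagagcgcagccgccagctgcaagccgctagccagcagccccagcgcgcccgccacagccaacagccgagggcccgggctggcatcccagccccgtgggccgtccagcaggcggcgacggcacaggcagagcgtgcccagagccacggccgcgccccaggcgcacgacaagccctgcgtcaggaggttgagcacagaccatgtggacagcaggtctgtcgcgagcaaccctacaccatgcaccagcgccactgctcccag
PRRT3: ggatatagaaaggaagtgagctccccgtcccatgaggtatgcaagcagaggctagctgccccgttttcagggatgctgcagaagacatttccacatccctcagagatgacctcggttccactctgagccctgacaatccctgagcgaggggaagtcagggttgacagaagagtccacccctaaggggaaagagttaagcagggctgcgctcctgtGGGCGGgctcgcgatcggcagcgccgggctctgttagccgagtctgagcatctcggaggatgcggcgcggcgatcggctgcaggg
The PRRT3-AS1 window held none of the 3 motifs and 28 CG dinucleotides, and the PRRT3 window held 1 GGGCGG and 18 CG dinucleotides. Over all 35116 RefSeq windows of this length, 45.0% held GGGCGG, 34.6% CCAAT and 11.5% TATAAA, and the median number of CG dinucleotides was 14.

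BCAR3-AS1 too was higher in SW620 while its sense gene was not called. BCAR3 encodes an adaptor protein of integrin and Src signalling. BCAR3-AS1 was at 5.47, 5.67 and 5.28 in SW480 and at 7.57, 7.59 and 7.30 in SW620, a difference of 2.01 ± 0.11 or 4.04-fold (adjusted p = 1.703e-08). BCAR3 ranged from 4.69 to 5.07 in SW480 and from 4.90 to 4.97 in SW620. The groups overlapped for the sense gene, with a difference of 0.04 ± 0.10 that turned to -0.07 without SW480 replicate 3, and not for the antisense transcript.

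A further 2 transcripts were higher in SW620 and had no measured sense gene. PTPRG-AS1, antisense to the gene of a receptor tyrosine phosphatase, was at 3.21, 3.33 and 3.21 in SW480, below the 25th percentile feature, and at 5.05, 5.16 and 4.78 in SW620. Its difference was 1.74 ± 0.10 (adjusted p = 2.808e-08). NR2F1-AS1, antisense to the gene of the nuclear receptor COUP-TF1, was at 3.57, 3.61 and 3.66 in SW480 and at 5.15, 4.63 and 4.85 in SW620. Here the SW480 values were tight (SD 0.046) and the SW620 values wider (SD 0.26), and the difference was 1.27 ± 0.12 (adjusted p = 1.958e-06). Both were dim in SW480, with no detection call at hand, so no fold is given for them. The nearest measured protein-coding genes were FEZF2 for PTPRG-AS1, at a difference of 0.24, and KIAA0825 for NR2F1-AS1, at -0.13.

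VAC14-AS1 was the only transcript of those at least 2-fold higher whose sense gene was changed too. VAC14 is the scaffold of the lipid kinase complex that makes phosphatidylinositol 3,5-bisphosphate on endosomes. VAC14-AS1 was at 4.68, 4.52 and 4.50 in SW480 and at 5.71, 5.45 and 5.54 in SW620, a difference of 1.00 ± 0.09 (adjusted p = 2.502e-06). VAC14 was at 7.35, 7.37 and 7.42 in SW480 and at 9.26, 9.20 and 9.04 in SW620, a difference of 1.79 ± 0.09 or 3.46-fold (adjusted p = 4.236e-09). For both genes every SW620 array lay above every SW480 array. The windows are printed because this is the only pair changed at least 2-fold in both genes for which RefSeq windows of both were at hand, the other pairs being FOXN3 and RASSF8. Their starts lay 46063 bases apart, VAC14-AS1 at chr16:70754845-70755144 (plus strand) and VAC14 at chr16:70801109-70801408 (minus strand).
VAC14-AS1: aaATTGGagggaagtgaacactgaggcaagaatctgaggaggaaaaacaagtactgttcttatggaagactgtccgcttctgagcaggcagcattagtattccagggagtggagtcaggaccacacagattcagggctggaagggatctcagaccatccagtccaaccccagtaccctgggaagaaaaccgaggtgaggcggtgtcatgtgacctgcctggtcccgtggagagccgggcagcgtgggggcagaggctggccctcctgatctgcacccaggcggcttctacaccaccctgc
VAC14: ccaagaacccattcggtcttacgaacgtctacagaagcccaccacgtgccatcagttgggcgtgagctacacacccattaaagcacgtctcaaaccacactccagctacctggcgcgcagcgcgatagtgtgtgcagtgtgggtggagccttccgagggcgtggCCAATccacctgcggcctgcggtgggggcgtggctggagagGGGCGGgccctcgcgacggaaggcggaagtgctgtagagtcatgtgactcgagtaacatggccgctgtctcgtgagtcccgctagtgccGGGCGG
The VAC14-AS1 window held 1 CCAAT, on the opposite strand, and 7 CG dinucleotides. The VAC14 window held 2 GGGCGG, 1 CCAAT and 26 CG dinucleotides.

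Of the 5 transcripts at least 2-fold lower in SW620, COL4A2-AS1 differed most. COL4A2, the sense gene, encodes a collagen IV chain of basement membranes and had no feature under its symbol alone. COL4A2-AS1 was at 6.03, 6.03 and 5.97 in SW480 and at 4.53, 4.31 and 4.29 in SW620, a difference of -1.64 ± 0.09, a factor of 3.11 (adjusted p = 1.311e-08). Its nearest measured protein-coding gene, NAXD, differed the other way, by 0.99.

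FOXN3-AS1 and RASSF8-AS1 were lower together with their sense genes. FOXN3 is a forkhead repressor of transcription. FOXN3-AS1 was at 4.69, 4.88 and 4.89 in SW480 and at 3.48, 3.35 and 3.17 in SW620, a difference of -1.49 ± 0.10 (adjusted p = 9.528e-08). Its SW620 values all lay below the 25th percentile feature, with no detection call at hand. FOXN3 was at 6.67, 6.93 and 6.80 in SW480 and at 4.34, 4.31 and 4.43 in SW620, a difference of -2.44 ± 0.09, a factor of 5.42. The second antisense gene of the locus, FOXN3-AS2, was dim in both lines (3.22 to 3.34 over the 6 arrays) and was not called, at -0.04 ± 0.08. RASSF8 belongs to the Ras association domain family. RASSF8-AS1 was at 4.88, 5.06 and 5.10 in SW480 and at 3.83, 3.83 and 3.83 in SW620. Its SD of 0.0011 in SW620 was far below the median SD of all genes in that line, 0.11. Its difference was -1.19 ± 0.09 (adjusted p = 2.203e-07), and that of RASSF8 was -2.10 ± 0.09, a factor of 4.29.

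DLGAP1-AS1 and NUTM2A-AS1 completed the group. DLGAP1-AS1, antisense to the gene of a postsynaptic scaffold protein, was at 7.45, 7.32 and 7.48 in SW480 and at 5.92, 6.24 and 5.90 in SW620. Its difference was -1.40 ± 0.10 (adjusted p = 2.192e-07), while TGIF1, the nearest measured protein-coding gene, was at -0.02. NUTM2A-AS1 was at 5.08, 5.51 and 5.03 in SW480 and at 4.47, 3.99 and 4.14 in SW620, a difference of -1.01 ± 0.14 (adjusted p = 8.503e-05), and GLUD1 beside it was at 1.05. VAC14-AS1 and NUTM2A-AS1 lay just past 2-fold, so with single arrays left out the number of transcripts at least 2-fold ran from 8 to 10, with VAC14-AS1 down to 0.93 and NUTM2A-AS1 to -0.86, while all 10 kept their call and direction.

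**Figure D2:**
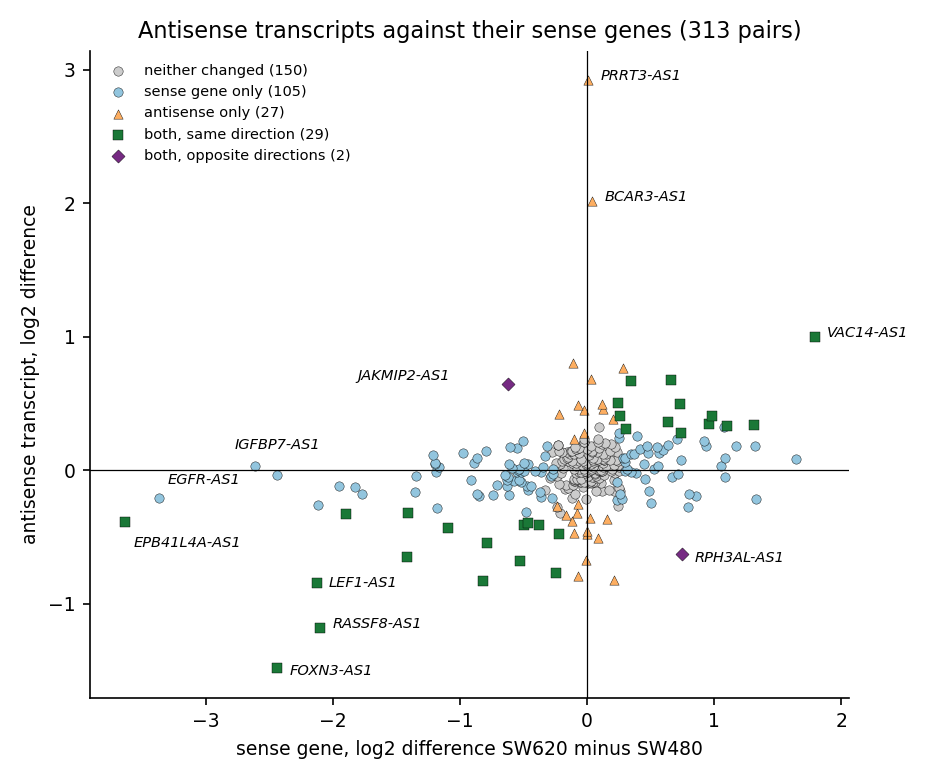
Difference of each antisense transcript (vertical axis, log2, SW620 minus SW480) against that of its sense gene (horizontal axis) for 313 pairs, with marker and colour showing which member was changed at an adjusted p below 0.05. Neither member was changed in 150 pairs, only the sense gene in 105 and only the antisense transcript in 27, and of the 31 with both changed 29 fall at the lower left or upper right.

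Among the 313 pairs both members were changed in 31, in the same direction in 29 (9.27%) and in opposite directions in 2. Neighbouring protein-coding genes are measured genes next in order along a chromosome, between which unmeasured genes can lie. Of their pairs, 13.0% of 11892 were both changed in the same direction and 4.37% in opposite directions. Both members were changed in 9.90% of the antisense pairs and in 17.3% of the neighbouring ones, and of these 93.5% and 74.8% shared a direction. For neighbouring protein-coding genes on opposite strands with starts within 1000 bases, which lie closer together, that share was 91.3%. Taken singly, 18.5% of the antisense members of the pairs were changed, against 39.5% of protein-coding genes. The gaps between these shares were not tested. The antisense transcript alone was changed in 27 pairs, the sense gene alone in 105 and neither in 150. Across the pairs the differences correlated at r = 0.334 (Spearman's rho = 0.343, n = 313 pairs), and across the neighbouring protein-coding genes at r = 0.186, as descriptions, since both genes of a pair were read on the same 6 arrays. Of the 302 distinct sense genes 131 were changed (43.4%). The count of pairs changed in the same direction depended on single arrays: it was 19 without SW480 replicate 1, 18 without SW480 replicate 2 and 22 to 26 without any of the others. The opposite pairs numbered 5 without SW620 replicate 3.

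Of the 29 pairs, 13 were higher and 16 lower in SW620, and 16 were called in the same direction in all 16 alternatives compared, which were those with the same threshold and no filter on dim genes. The 5 higher ones of these 16 were VAC14, SH3PXD2A, ARRDC3, RBM26 and HAS2 with their antisense transcripts, and the 11 lower ones were FOXN3, RASSF8, LEF1, CBR3, STARD4, EPB41L4A, C1QTNF1, LOXL1, PAN3, SCOC and GALNT9. The sense gene differed more than the antisense transcript in 19 of the 29 and less in 10. Whether the size differed between the members of a pair was not tested.

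LEF1, a transcription factor that acts with beta-catenin in Wnt signalling, was at 6.96, 7.01 and 7.12 in SW480 and at 4.80, 4.83 and 5.08 in SW620, a difference of -2.13 ± 0.10. LEF1-AS1 was at 4.46, 4.30 and 4.56 in SW480 and at 3.44, 3.73 and 3.62 in SW620, a difference of -0.84 ± 0.10 (adjusted p = 2.241e-05). Both members were lower in every SW620 array. EPB41L4A, a FERM-domain protein of the band 4.1 family, was at 6.84, 6.82 and 6.76 in SW480 and at 3.06, 3.34 and 3.12 in SW620, a difference of -3.63 ± 0.09. EPB41L4A-AS1, the host transcript of a small nucleolar RNA, was at 7.32, 7.06 and 7.18 in SW480 and at 6.68, 6.80 and 6.91 in SW620, a difference of -0.39 ± 0.10 (adjusted p = 0.00635). The sense gene thus lay well above the median feature in SW480 and below the 25th percentile in SW620, where no detection call was at hand, so no fold is given. Their annotated starts lay 258751 bases apart.

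CBR3, a carbonyl reductase, differed by -1.42 ± 0.10 and CBR3-AS1 by -0.65 ± 0.12 (adjusted p = 0.000761). SH3PXD2A, the scaffold protein TKS5 of invadopodia, was at 3.78, 3.62 and 3.68 in SW480 and at 5.04, 4.94 and 5.04 in SW620, a difference of 1.31 ± 0.08. SH3PXD2A-AS1 was at 6.33, 6.38 and 6.39 in SW480 and at 6.81, 6.67 and 6.64 in SW620, a difference of 0.34 ± 0.08 (adjusted p = 0.00593). For both genes every SW620 array lay above every SW480 array.

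The same order of sizes held for 3 pairs whose antisense call rested on most arrays being present. TMEM51-AS1 differed by -0.33 ± 0.11 (adjusted p = 0.0299) beside TMEM51 at -1.89 ± 0.11, and its call was lost on leaving out any array but SW620 replicate 2 (-0.43 to -0.21, adjusted p up to 0.114). MAP3K20-AS1 differed by -0.32 ± 0.11 (adjusted p = 0.0331) beside MAP3K20, a stress-activated kinase, at -1.41 ± 0.09, and only leaving out SW620 replicate 3 kept its call (-0.43 to -0.22, adjusted p up to 0.142). KIAA1671-AS1 differed by 0.33 ± 0.11 (adjusted p = 0.0325) beside KIAA1671 at 1.10 ± 0.09, and lost its call without SW480 replicate 1 or 2 or SW620 replicate 1 or 3 (0.24 to 0.42, adjusted p up to 0.146). A second, dimmer feature of KIAA1671 was at 0.03 ± 0.10.

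Of the pairs whose sense gene differed by less than 2-fold, 4 are given here, chosen after their values were seen. C1QTNF1, a secreted protein with a C1q domain, was at -0.82 ± 0.09 and C1QTNF1-AS1 at -0.83 ± 0.10 (adjusted p = 1.636e-05). PAN3, a subunit of a poly(A) nuclease, was at -0.78 ± 0.08 and PAN3-AS1 at -0.55 ± 0.09. Higher in SW620 were HAS2, a hyaluronan synthase, by 0.73 ± 0.09 and HAS2-AS1 by 0.50 ± 0.09, and ARRDC3, an alpha-arrestin, by 0.98 ± 0.08 and ARRDC3-AS1 by 0.41 ± 0.10. For these 4 pairs the arrays of the lines were apart in both members.

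Of the 10 pairs in which the antisense transcript differed more, 3 are given, chosen after their values were seen. PCNA, the sliding clamp of DNA replication, was at 9.14, 9.02 and 9.14 in SW480 and at 9.28, 9.42 and 9.35 in SW620, a difference of 0.25 ± 0.08. PCNA-AS1 was at 6.81, 6.48 and 6.53 in SW480 and at 7.01, 7.09 and 7.24 in SW620, a difference of 0.50 ± 0.10 (adjusted p = 0.00189). MCM3AP-AS1 was at -0.77 ± 0.09 beside MCM3AP, a factor of mRNA export, at -0.24 ± 0.08. GAS5, itself a long non-coding RNA that hosts small nucleolar RNAs, was at -0.22 ± 0.08 and GAS5-AS1 at -0.48 ± 0.12. The sense calls of GAS5 (-0.24 to -0.21) and MCM3AP (-0.26 to -0.20) were lost whichever array was left out, and that of PCNA with any but SW620 replicate 1 left out (0.21 to 0.28).

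Of the 313 pairs, 82 had annotated starts within 1000 bases of each other, 217 overlapped with starts further apart or of unknown distance, and 14 did not overlap. Both members were changed in 9 of the 82, each time in the same direction (11.0%), in 22 of the 217 (20 in the same direction, 9.22%) and in 0 of the 14. For comparison, 458 neighbouring protein-coding pairs on opposite strands with starts as close were both changed in the same direction in 95 cases (20.7%) and in opposite directions in 9. Protein-coding genes were also changed more often singly (39.5%) than the antisense members of pairs (18.5%), and the gap was not tested. Of the 82, 45 had starts that pointed away from each other, with 6 pairs changed together, and 37 had starts that pointed toward each other, so that the first parts of both transcripts overlap, with 3 changed together. The 9 pairs were PRR7, SCOC, TMEM51, ARRDC3, MCF2L and RBM26, pointing away, and PAN3, STARD4 and PCNA, pointing toward each other.

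An example of each layout is printed, chosen after the values were seen, because these are the windows in which both starts lie side by side. RBM26, an RNA-binding protein, was at 8.77, 8.76 and 8.79 in SW480 and at 9.54, 9.45 and 9.32 in SW620, a difference of 0.66 ± 0.09. RBM26-AS1 was at 5.29, 5.58 and 5.37 in SW480 and at 6.03, 6.10 and 6.13 in SW620, a difference of 0.67 ± 0.09 (adjusted p = 7.367e-05). Both members were higher in every SW620 array by nearly the same amount, although a second, dimmer feature of RBM26-AS1 was at 0.07 ± 0.12. STARD4, a carrier of cholesterol between membranes, was at 9.49, 9.61 and 9.56 in SW480 and at 8.40, 8.62 and 8.35 in SW620, a difference of -1.10 ± 0.09. STARD4-AS1 was at 5.48, 5.45 and 5.14 in SW480 and at 4.95, 5.07 and 4.75 in SW620, a difference of -0.43 ± 0.11 (adjusted p = 0.0083). The starts of RBM26-AS1, chr13:79406059-79406358 (plus strand), and RBM26, chr13:79406206-79406505 (minus strand), lay 54 bases apart and their windows share 153 bases. Those of STARD4-AS1, chr5:111511976-111512275 (plus strand), and STARD4, chr5:111512486-111512785 (minus strand), lay 309 bases apart.
RBM26-AS1: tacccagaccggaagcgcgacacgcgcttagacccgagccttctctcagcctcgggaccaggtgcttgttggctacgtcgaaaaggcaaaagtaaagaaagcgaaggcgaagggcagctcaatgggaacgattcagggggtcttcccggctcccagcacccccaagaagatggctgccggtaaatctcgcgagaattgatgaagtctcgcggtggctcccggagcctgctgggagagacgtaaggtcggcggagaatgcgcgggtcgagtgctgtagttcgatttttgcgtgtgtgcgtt
RBM26: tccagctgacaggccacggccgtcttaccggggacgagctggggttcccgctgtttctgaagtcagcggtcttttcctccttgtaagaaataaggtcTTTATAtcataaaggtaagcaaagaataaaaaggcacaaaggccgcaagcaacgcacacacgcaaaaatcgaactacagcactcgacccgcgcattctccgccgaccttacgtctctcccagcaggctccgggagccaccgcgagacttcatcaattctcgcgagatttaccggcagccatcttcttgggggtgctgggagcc
STARD4-AS1: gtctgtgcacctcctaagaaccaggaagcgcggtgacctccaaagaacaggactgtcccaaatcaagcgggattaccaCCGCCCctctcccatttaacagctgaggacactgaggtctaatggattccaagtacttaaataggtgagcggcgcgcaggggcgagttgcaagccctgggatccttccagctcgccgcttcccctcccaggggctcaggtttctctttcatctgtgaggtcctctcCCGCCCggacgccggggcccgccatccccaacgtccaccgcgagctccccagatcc
STARD4: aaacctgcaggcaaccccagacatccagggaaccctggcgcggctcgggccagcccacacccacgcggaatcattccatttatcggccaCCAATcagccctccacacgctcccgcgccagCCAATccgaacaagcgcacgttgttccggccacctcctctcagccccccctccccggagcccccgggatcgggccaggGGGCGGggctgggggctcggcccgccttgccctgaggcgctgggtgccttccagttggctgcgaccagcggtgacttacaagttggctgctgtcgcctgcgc
The RBM26-AS1 window held none of the 3 motifs and the RBM26 window 1 TATAAA, on the opposite strand and upstream of the stretch that both share. The STARD4-AS1 window held 2 GGGCGG, both on the opposite strand, and the STARD4 window 1 GGGCGG and 2 CCAAT.

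A RefSeq window was at hand for 362 of the 472 antisense genes, 413 windows in all. GGGCGG was in 43.3% of them, CCAAT in 33.2% and TATAAA in 8.96%, with a median of 17 CG dinucleotides, close to the shares over all windows. In the 99 windows of antisense genes that start within 1000 bases of the sense start, GGGCGG was in 63.6%, CCAAT in 22.2% and TATAAA in 3.03%, with a median of 27 CG dinucleotides. The 83 windows of changed antisense genes had 45.8%, 31.3% and 3.61%, with a median of 20, and the 330 windows of those not called had 42.7%, 33.6% and 10.3%, with a median of 16. These shares describe letters in the windows and were not tested.

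**Figure D3:**
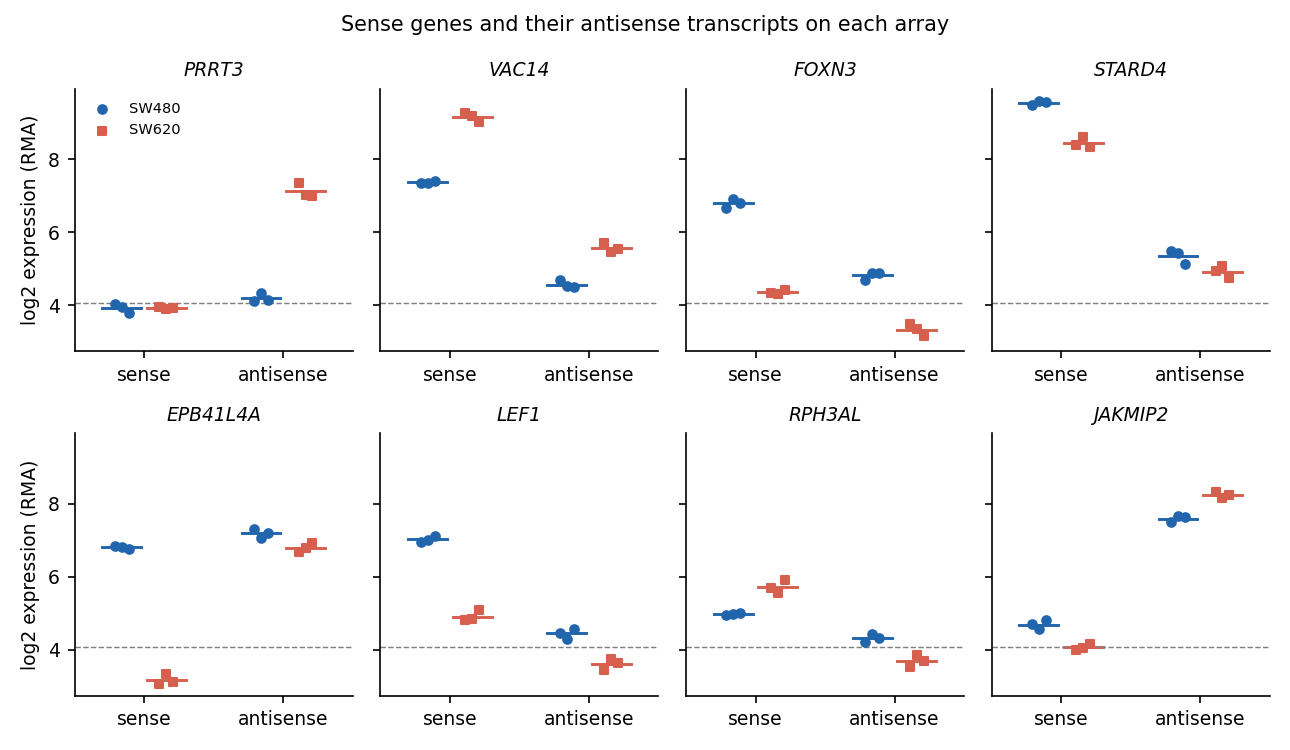
Log2 expression (vertical axis) of 8 sense genes and their antisense transcripts on each array (circles, SW480; squares, SW620), with a bar at the mean of 3 arrays and a dashed line at the median of all features (4.07). For PRRT3, whose own values lie below the dashed line in both lines, only the antisense transcript was called. VAC14, FOXN3, STARD4, EPB41L4A and LEF1 show a change of both in the same direction, and RPH3AL and JAKMIP2 changes in opposite directions.

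The pairs that went in opposite directions were RPH3AL and JAKMIP2, and both held in all 16 alternatives compared. RPH3AL, a Rab effector in regulated exocytosis, was at 4.94, 4.98 and 4.99 in SW480 and at 5.68, 5.56 and 5.92 in SW620, a difference of 0.75 ± 0.10 (adjusted p = 5.179e-05). RPH3AL-AS1 was at 4.22, 4.42 and 4.31 in SW480 and at 3.52, 3.86 and 3.69 in SW620, a difference of -0.63 ± 0.10 (adjusted p = 0.000278). JAKMIP2, a coiled-coil protein, was at 4.69, 4.55 and 4.81 in SW480 and at 3.98, 4.04 and 4.16 in SW620, a difference of -0.62 ± 0.09 (adjusted p = 0.000165). JAKMIP2-AS1 was at 7.50, 7.65 and 7.63 in SW480 and at 8.33, 8.15 and 8.23 in SW620, a difference of 0.65 ± 0.09 (adjusted p = 6.529e-05). In each pair the arrays of the lines were apart for both members.

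Of the 27 antisense transcripts that were called while their sense gene was not, 13 were higher and 14 lower in SW620. A missing call of the sense gene does not show that it was equal in both lines. Besides PRRT3-AS1 and BCAR3-AS1 the higher ones included DHRS4-AS1 (0.81 ± 0.09, with DHRS4, a short-chain dehydrogenase, at -0.11), TMEM44-AS1 (0.76 ± 0.09, with TMEM44 at 0.28) and CLDN10-AS1 (0.68 ± 0.10, with the tight junction gene CLDN10 at 0.03). The second feature of DHRS4-AS1 was at 0.23 ± 0.10. The lower ones included MNX1-AS1 (-0.82 ± 0.08), while MNX1, a homeobox factor, was at 0.22 (adjusted p = 0.104), and URB1-AS1 (-0.79 ± 0.11), while URB1, a ribosome biogenesis factor, was at -0.07. FBXL19-AS1 was at -0.67 ± 0.08 and FBXL19, an F-box protein, at -0.01. Genes named here beyond the rule were chosen after their values were seen.

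The sense gene differed at least 2-fold in 34 pairs. The antisense transcript was changed in 11 of these, always in the direction of the sense gene and at least 2-fold in 3 (VAC14-AS1, FOXN3-AS1 and RASSF8-AS1), and it had the sign of the sense difference in 27. In the other 23 it was not called, with differences from -0.28 to 0.33, and 19 of these 23 antisense transcripts lay below the median feature in mean level. EGFR, the epidermal growth factor receptor, was at 6.98, 6.92 and 6.85 in SW480 and at 3.42, 3.57 and 3.67 in SW620, a difference of -3.36 ± 0.09. EGFR-AS1 was at 3.41, 3.23 and 3.35 in SW480 and at 3.06, 3.14 and 3.17 in SW620, all below the 25th percentile feature, with a difference of -0.21 ± 0.09 (adjusted p = 0.0753). IGFBP7, a secreted binding protein of insulin-like growth factors, differed by -2.61 ± 0.09, while IGFBP7-AS1 ranged from 4.02 to 4.28 over the 6 arrays and differed by 0.03 ± 0.09. SVIL, an actin-binding protein, differed by 1.33 ± 0.09, and SVIL-AS1, with a mean above the 75th percentile feature, by -0.21 ± 0.10 (adjusted p = 0.104), its arrays overlapping. A missing call in these pairs does not show that the antisense transcript was equal in both lines.

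**Figure D4:**
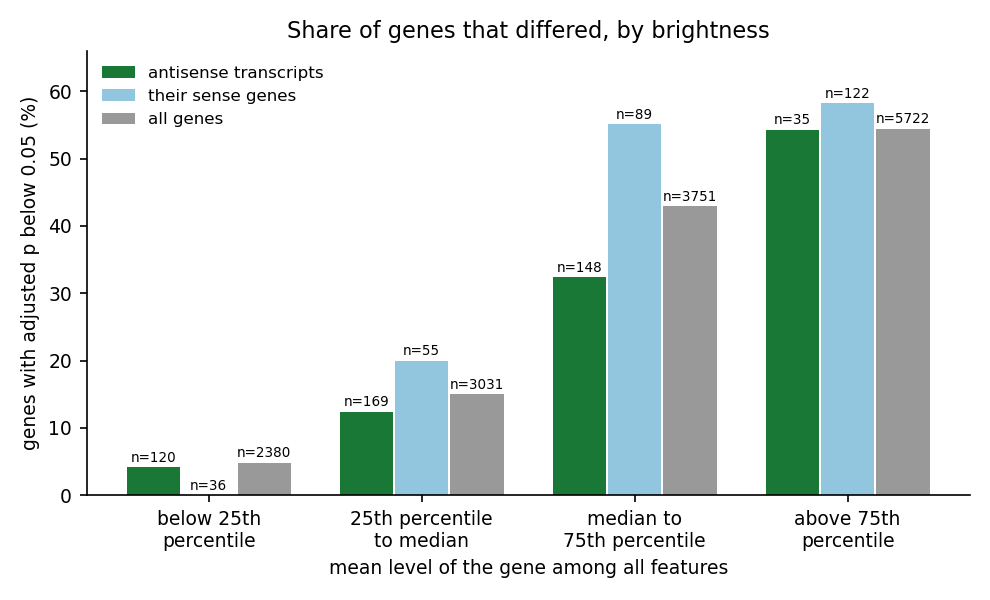
Percent of genes changed at an adjusted p below 0.05 (vertical axis, bars from 0) in 4 classes of mean level set by the percentiles of all features, for the antisense transcripts, their sense genes and all genes, with the number of genes above each bar. The share for antisense transcripts goes from 4.17% in the dimmest class to 54.3% in the brightest, where all genes are at 54.4%.

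Brightness and calls moved together. Brightness here is the signal of a feature, which depends on its probes, and is no measure of one gene's expression against another's. The median level was 3.85 for the antisense transcripts (range 2.75 to 8.07) and 4.69 for all genes, and only 38.8% of the antisense transcripts lay above the median feature, against 63.6% of all genes. Below the 25th percentile feature 5 of 120 antisense transcripts were changed (4.17%, all genes 4.83%). From there to the median 21 of 169 were (12.4%, all genes 15.0%), and from the median to the 75th percentile 48 of 148 (32.4%, all genes 42.9%). Above the 75th percentile feature 19 of 35 were changed (54.3%, all genes 54.4%, sense genes 58.2%). The difference between the shares was not tested in any class. The median SE was 0.0966 for the antisense transcripts and 0.0932 for all genes. No probe positions or detection calls were used here, so the part of background signal, or of sense RNA read by an antisense feature, was not tested.

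The 6 brightest antisense transcripts were PITPNA-AS1 (mean level 8.07), JAKMIP2-AS1 (7.91), THAP9-AS1 (7.25), GABPB1-AS1 (7.23), FGD5-AS1 (7.07) and PSMA3-AS1 (7.01). Apart from JAKMIP2-AS1 their differences were small. PITPNA-AS1 was at 8.19, 8.19 and 8.25 in SW480 and at 7.92, 8.0 and 7.85 in SW620. All SW620 arrays were lower, by 0.28 on average (-0.28 ± 0.08, adjusted p = 0.016), and the call was lost without SW480 replicate 3 (-0.26, adjusted p = 0.0581) or SW620 replicate 3 (-0.25, adjusted p = 0.0522). THAP9-AS1 differed by 0.04 ± 0.10, GABPB1-AS1 by 0.20 ± 0.10, FGD5-AS1 by 0.10 ± 0.08 and PSMA3-AS1 by -0.14 ± 0.09, and none of these was called (adjusted p from 0.163 to 0.804). THAP9, the sense gene of THAP9-AS1, is related to a DNA transposase and was at 0.21 ± 0.10 (adjusted p = 0.132).

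Values near the threshold show how small a difference these arrays could call. Just past it were ALDH1L1-AS2 (0.23 ± 0.08, adjusted p = 0.0492), OPA1-AS1 (0.31 ± 0.11, adjusted p = 0.0438) and SLFNL1-AS1 (0.23 ± 0.08, adjusted p = 0.0428). Just short of it were UBAC2-AS1 (0.24 ± 0.09, adjusted p = 0.0515), NEBL-AS1 (-0.26 ± 0.10, adjusted p = 0.0529) and NHSL1-AS1 (-0.28 ± 0.10, adjusted p = 0.054). The calls just past it were lost on leaving out any array for ALDH1L1-AS2 (0.19 to 0.26), any but SW480 replicate 2 for SLFNL1-AS1 (0.21 to 0.27) and any but SW480 replicate 1 and SW620 replicate 2 for OPA1-AS1 (0.22 to 0.40). The sense gene OPA1, which fuses the inner mitochondrial membrane, was at 0.31 ± 0.08, and NEBL, the actin-binding protein nebulette, was at -2.11 ± 0.11. NHSL1 differed by 0.80 ± 0.09, against the sign of its antisense transcript.

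Among antisense transcripts often studied in cancer, CDKN2B-AS1 ranged from 3.92 to 4.22 in SW480 and from 3.98 to 4.18 in SW620, and its difference of 0.03 ± 0.10 took either sign as arrays were left out. ZEB1-AS1 differed by -0.08 ± 0.08 (adjusted p = 0.488). AFAP1-AS1 was dim, at 3.22 to 3.37 in SW480 and 3.37 to 3.68 in SW620, and differed by 0.23 ± 0.10 (adjusted p = 0.0786), which passed the threshold without SW620 replicate 1 (0.31, adjusted p = 0.0329). HIF1A-AS2, antisense to the gene of a hypoxia-inducible factor, was at 5.05, 4.90 and 5.26 in SW480 and at 5.36, 5.42 and 5.69 in SW620. It was higher by 0.42 ± 0.11 (adjusted p = 0.0107), and was not called without SW480 replicate 2 (0.34, adjusted p = 0.0549). The transcripts of this paragraph were picked by hand, outside the naming rule, and stand for no class. Others kept their call whichever array was left out, such as FOXD2-AS1 (-0.47 ± 0.10, adjusted p = 0.00239) and SLCO4A1-AS1 (0.38 ± 0.09, adjusted p = 0.00465).

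Of the 93 changed antisense transcripts 12 had several features, and in 3 of them all features were called in the same direction (LOXL1-AS1, GAS6-AS1 and KANSL1-AS1). LOXL1-AS1 was the clearest, with its features at -0.68 ± 0.09 and -0.68 ± 0.11, beside LOXL1, an enzyme that cross-links elastin, at -0.53 ± 0.09. PRR34-AS1 was the opposite case, with a feature at -0.80 ± 0.09 and another of nearly the same brightness at 0.02 ± 0.10. Among the transcripts not called, dimmer features of HLA-F-AS1 and IL12B-AS1 were called when tested separately. HLA-F-AS1 was at -0.23 ± 0.10 on its brightest feature and from -0.45 to -0.22 on the others. The features at -0.45 had identical means and SE, so they do not count as separate readings. IL12B-AS1 was at 0.24 ± 0.09 on its brighter feature and at 0.48 ± 0.09 on the dimmer. The features of a gene can lie on different exons or isoforms, and which was not examined here.

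The chromosomes with the most antisense transcripts were 3, 1, 10, 13 and 7. On chromosome 3, 7 of 49 were higher and 1 lower in SW620, while 14.8% of the other genes there were higher and 17.4% lower. The 7 were PRRT3-AS1, PTPRG-AS1, TMEM44-AS1, LPP-AS2, OPA1-AS1, SLC9A9-AS1 and ALDH1L1-AS2. On chromosome 1, 4 of 42 were higher and 4 lower, with 17.2% and 12.3% of the other genes. On chromosome 10, 3 of 39 were higher and 6 lower, with 26.7% and 12.8% of the other genes. On chromosome 13, 6 of 32 were higher and 3 lower, with 21.4% and 29.9%, and on chromosome 7, 1 of 28 was higher and 3 lower, with 10.7% and 41.6%. These counts are small and were not tested, and copy number was not measured.

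Other classes of non-coding RNA are given beside the antisense transcripts, of which 19.7% were changed, with no test between the classes. Of 459 long intergenic (LINC) genes 45 were higher and 32 lower (16.8%), and of 133 divergent, intronic or overlapping transcripts with the endings -DT, -IT or -OT 11 were higher and 23 lower (25.6%). Of 1072 microRNA genes 85 were higher and 81 lower (15.5%). Of all 932 long non-coding genes outside the antisense set 20.6% were changed, at a median level of 3.77, and of 11916 protein-coding genes 39.5%, at a median level of 5.21.

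Antisense transcription is ended and its RNA degraded by several nuclear complexes, whose genes are given as counts. Of 17 measured genes of the RNA exosome and its nuclear adaptors (22 listed), 4 were higher and 6 lower (58.8% changed, against 35.6% of all genes and 39.5% of protein-coding genes), with a median difference of 0.06 against 0.01 over all genes. EXOSC6, a ring subunit, was 2.39-fold higher (1.26 ± 0.08), TENT4B, a poly(A) polymerase that tags nuclear RNA, was higher by 0.66 ± 0.09, and MTREX, the helicase that feeds the exosome, by 0.55 ± 0.09. Other subunits of the same ring were lower, such as EXOSC5 at -0.52 ± 0.08. Of 18 measured Integrator, cap-binding and early termination factors (24 listed), 8 were higher and 3 lower (61.1%, against 35.6% of all genes), with a median of 0.16. Examples are SCAF8 (0.60 ± 0.09) and INTS4 (0.57 ± 0.09), which were higher, and INTS1 (-0.60 ± 0.08), which was lower. The 11 calls became 7 without SW480 replicate 2, 7 with all features of the table in the fit and 7 at an adjusted p below 0.01.

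Among the genes that act on double-stranded RNA and small RNAs, 10 of 23 were measured, 1 was higher and 2 lower (30.0%, near the 35.6% of all genes), with a median of -0.09. DGCR8, the partner of Drosha, was higher by 0.53 ± 0.08, and TNRC6C, a silencing factor bound by Argonaute, and EIF2AK2, the kinase PKR, were at -0.52 ± 0.11 and -0.47 ± 0.08. Of 15 measured genes of Polycomb repressive complex 2 and the DNA and H3K9 methyltransferases (17 listed), 6 were higher and 2 lower (53.3%, against 35.6% of all genes), with a median of 0.07. None of these shares was tested against that of all genes, and of the genes above the 75th percentile feature 54.4% were changed. EZH2, the main methyltransferase of that complex, was higher by 0.46 ± 0.11 and PHF19, an accessory subunit, by 0.60 ± 0.08, while EZH1, the alternative methyltransferase, was at -0.67 ± 0.09. In bulk RNA such as this, fewer cells that make a transcript and less of it per cell cannot be told apart.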

How the data were processed

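Total RNA of spheroid cultures was read on 6 Affymetrix whole-transcript arrays with biotin-labelled sense-strand cDNA, per the labels' protocols. The authors deposited log2 values, for which the submitters' processing notes name RMA and the Partek software. No version, setting, detection call or genome build was at hand, and base 2 was taken from the range of the values (1.99 to 13.9). The number of arrays limits the precision.

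Exactly 1 gene symbol was attached to 16098 features. The other 37518, with no symbol or with several, were not told apart and were left out of the gene fit. SW620 was set against SW480 by limma's moderated test (version 3.58.1 under R 4.3.3), two-sided, with no filter on dim genes, 8.39 prior degrees of freedom and Benjamini-Hochberg adjustment over 14884 genes. Only the limma comparison was run on simulated data, with independent noise and far fewer changed genes than were called here. The choice of features and the pairing with sense genes were not part of that run. Sense genes were matched by symbol. Names, strands, neighbours and promoter windows came from RefSeq tables on GRCh38.p14. The antisense set, the gene lists, the tests and the alternatives were chosen with earlier results of these data known. Genes were named by rule: antisense transcripts changed at least 2-fold, pairs changed in opposite directions, pairs with a sense gene changed at least 2-fold and a changed antisense transcript, the 6 brightest, the 3 nearest to the threshold on either side, and the 3 largest changes of a list. The replicate numbers did not pair the arrays: deviations of same-numbered arrays correlated at -0.0089, -0.023 and -0.012. Alternatives varied the scaling, the filter on dim genes, the variance model, the features, the threshold and the arrays. Leaving out Y-linked genes was added after the data had been seen.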

Additional observations from a re-analysis of the deposited data

How the results depend on the processing

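Of the 93 changed antisense transcripts, 60 (27 higher, 33 lower), with all 10 at least 2-fold, kept their call and direction in all 16 alternatives with the same threshold and no filter on dim genes. With all features of the table in the fit, also those not used for a gene, 62 were changed, 27 of them higher, and 16 pairs went the same way. Of all genes 27.4% were called in that fit, against 35.6% in the main one. At an adjusted p below 0.01 the counts were 60, 26 and 16, and below 0.1 there were 122 changed and 6 opposite pairs. The shares of all genes called were 26.4% and 41.4%. With single arrays left out, 78 to 93 were changed (35 to 41 higher, 40 to 52 lower), 8 to 10 at least 2-fold, 18 to 26 pairs in the same direction and 2 to 5 in opposite directions. Of all genes 30.8% to 33.5% were then called. With the replicate number as a block 95 were changed, 90 of them among the 93, with 30 same and 3 opposite pairs. The share of all genes called was 35% with that block. Without Y-linked genes 93 were changed, and of all genes 35.6%. Signs turned only for genes that were not called. PRRT3 was at -0.00808 after repeat quantile normalization, -0.00374 after median centring and -0.0161 after cyclic loess. With single arrays left out, PRRT3 ran from -0.0651 (without SW480 replicate 3) to 0.0617, with -0.00777 without SW620 replicate 1. BCAR3 ran from -0.0676 (without SW480 replicate 3) to 0.119. CDKN2B-AS1 ran from -0.0272 (without SW480 replicate 1) to 0.124, with -0.0179 without SW620 replicate 3. IGFBP7-AS1 ran from -0.0382 (without SW620 replicate 3) to 0.0952, with -0.00291 without SW480 replicate 2. THAP9-AS1 ran from -0.0452 (without SW480 replicate 1) to 0.106, with -0.0369 without SW620 replicate 2. The cause of these changes was not tested. Dim features limit what could be called.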
